A study of Rattus norvegicus with 12 samples.

Results

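Heat shock chaperones are the proteins that fold, hold and refold other proteins, and 10 rat genes of this kind were chosen by name: Hspa1a, Hspa5, Hspa8, Hsp90aa1, Hsp90ab1, Hspd1, Hspe1, Hspb1, Hsph1 and Dnajb1. Each was looked up by its Entrez gene number in an array table of the whole hippocampus, and 6 of the 10 were found among the 9962 genes tested: Hspa5, Hsp90ab1, Hspe1, Hspb1, Hsph1 and Dnajb1. Hspa1a, Hspa8, Hsp90aa1 and Hspd1 were not analysed here. No filter on low signals was used, so all 6 that were found entered every comparison.

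The rats came from generation 4 of selective breeding on the activity of a rat placed in an unfamiliar field. Bred High Responder (bHR) rats are the line bred for high activity and bred Low Responder (bLR) rats the line bred for low activity; all were adult males (P102-107), with no treatment named. There were 6 rats of each line, 1 rat and 1 Affymetrix RAE230A array each, and 1 array of each line (bHR replicate 1 and bLR replicate 5) was marked by the submitters as failed, which left 5 bHR and 5 bLR arrays. Values are log2 expression, on which a difference of 1 is a 2-fold change.

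Heat shock proteins are grouped by size and mechanism. HSP70 proteins bind exposed hydrophobic stretches of a client in a cycle driven by ATP, J-proteins deliver clients to them and start that ATP cycle, and HSP110 proteins exchange the spent nucleotide. HSP90 takes over clients that are nearly folded, the mitochondrial chaperonin closes around them in a chamber, and small heat shock proteins hold unfolded proteins without ATP. The cytosolic and mitochondrial genes are induced by heat shock factor 1, which binds as a trimer to repeated GAA units, whereas the genes of the endoplasmic reticulum answer to the unfolded protein response.

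The sequences before the starts of 5 measured genes are shown because they hold the letters of the elements named above, of one kind in the endoplasmic reticulum gene and of the other in 4 cytosolic and mitochondrial genes. They are RefSeq sequences of rat assembly GRCr8, written 5′ to 3′ along the gene's strand, with the matched letters in capitals. For Hspa5 (chr3:38452926-38453015, plus strand) the capitals mark the endoplasmic reticulum stress element, which opens with CCAAT and closes with CCACG and ends 25 bases before the start. For the other genes they mark units of GAA and its complement TTC, spaced as GAANNTTC or TTCNNGAA. Hspe1 is at chr9:64084227-64084326 on the plus strand, Hsph1 at chr12:10427248-10427367 on the plus strand, Hspb1 at chr12:26432382-26432451 on the minus strand and Dnajb1 at chr19:41431142-41431221 on the minus strand.
Hspa5: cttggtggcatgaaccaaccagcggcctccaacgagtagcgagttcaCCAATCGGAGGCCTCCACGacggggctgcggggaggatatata
Hspe1: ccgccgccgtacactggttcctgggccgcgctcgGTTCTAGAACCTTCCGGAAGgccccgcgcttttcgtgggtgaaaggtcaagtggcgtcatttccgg
Hsph1: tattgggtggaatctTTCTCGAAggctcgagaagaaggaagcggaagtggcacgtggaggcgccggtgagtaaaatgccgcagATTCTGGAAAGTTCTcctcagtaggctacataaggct
Hspb1: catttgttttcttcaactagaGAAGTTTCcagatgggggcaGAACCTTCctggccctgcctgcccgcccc
Dnajb1: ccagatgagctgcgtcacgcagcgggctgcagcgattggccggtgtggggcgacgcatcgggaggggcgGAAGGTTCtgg

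Over the 250 bases before the start, searched on both strands, GAANNTTC or TTCNNGAA was present in 4 of the 6 measured genes (Hspe1, Hsph1, Hspb1 and Dnajb1) and in 4534 of all 33469 promoters of the table (13.5%). The longer form, in which a further unit follows in the same spacing and which contains the shorter ones, was present in Hspe1 and Hsph1 and in 0.66% of all promoters. The endoplasmic reticulum stress element was present in Hspa5 and in 0.0657% of all promoters, and none of these letters was found in the window of Hsp90ab1. Hspe1 and Hspd1 are neighbours transcribed away from each other, their windows share 211 bases, and the marked letters of Hspe1 lie in the shared stretch. A match describes these letters and is neither a proven site nor a cause of any value below.

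The hybridised tissue carried markers of a mixed brain tissue, with means of 11.69 for Snap25 of neurons, 10.85 for Gfap of astrocytes and 12.13 for Mbp of oligodendrocytes. These were the highest means of their lists. The lowest were 5.17 for Camk2a of neurons, 6.02 for Aldh1l1 of astrocytes and 7.04 for Mog of oligodendrocytes. In such bulk RNA, fewer cells of a type and less RNA per cell cannot be told apart. Of the 10 passing arrays, 3 stood apart in the 5′ minus 3′ value of dap, an added bacterial control RNA: bHR replicate 6 had -1.36, bLR replicate 2 had -1.54 and bLR replicate 3 had -1.82, against -0.42 to -0.07 on the other 7. Beta-actin, a transcript of the tissue, was lowest on these 3 as well, with -2.30, -2.89 and -3.65, so the chaperone values between lines, for locomotor score and between pairs are given with and without them. They are called the low-dap arrays. The summed signal of 8 choroid plexus markers ran between 8.98 and 11.45 on bHR arrays and between 8.68 and 10.73 on bLR arrays, whereas that of 6 neuronal markers ran between 12.83 and 12.98 on bHR arrays and between 12.81 and 12.99 on bLR arrays; their part in the results below was not tested.

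The first comparison asked whether the chaperones differ between the lines. None of the 6 passed the test: bHR and bLR values overlapped for every gene, 3 means were higher and 3 lower in bHR rats, and the 95% intervals of the differences lay within -0.30 and 0.33 on the log2 scale. The limma adjusted p over all genes was 0.992 for each. No gene of the table passed adjusted p 0.05 in this comparison (0%), 293 genes (2.94%) but 0 of the 6 chaperones had an unadjusted p under that value, and 29 genes (0.291%) had lines that did not overlap.

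Hspa5, also called BiP, is the HSP70 protein of the endoplasmic reticulum and is commonly read as a marker of the unfolded protein response. Its level in bHR replicates 2, 3, 4, 5 and 6 was 9.07, 9.38, 8.94, 9.31 and 9.67, and in bLR replicates 1, 2, 3, 4 and 6 it was 9.30, 9.32, 9.33, 9.01 and 9.49. The highest and the lowest value were both bHR, so the bLR values lay inside the bHR range. The means were 9.27 ± 0.28 in bHR and 9.29 ± 0.17 in bLR rats (SD, n = 5 each), and the difference was -0.018 (SE 0.13, 95% interval -0.30 to 0.27).

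Hsph1, the HSP110 protein that exchanges nucleotide on HSP70, had 9.51, 9.25, 9.31, 9.24 and 9.62 in the bHR rats in the same order and 9.37, 9.54, 9.25, 9.32 and 9.72 in the bLR rats. In each line 1 array, bHR replicate 6 or bLR replicate 6, was above 9.6, and the remaining values interleaved. The means were 9.38 ± 0.17 in bHR and 9.44 ± 0.19 in bLR rats, a difference of -0.055 (SE 0.10, 95% interval -0.28 to 0.17).

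Dnajb1, the cytosolic J-protein known as Hsp40, had 6.18, 6.27, 6.28, 6.25 and 6.19 in bHR rats and 6.27, 6.00, 6.10, 6.29 and 6.39 in bLR rats. The bLR values held both extremes, and the 2 lowest came from low-dap arrays. The means were 6.23 ± 0.046 in bHR and 6.21 ± 0.16 in bLR rats, and the difference was 0.022 (SE 0.068, 95% interval -0.13 to 0.17).

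Hsp90ab1 encodes the constitutive HSP90 of the cytosol, which in neurons also holds steroid receptors ready for hormone. It had 10.81, 10.68, 10.63, 10.57 and 10.77 in bHR rats and 10.87, 10.71, 10.10, 10.67 and 10.80 in bLR rats. Of these 10 values, 9 fell between 10.57 and 10.87, and bLR replicate 3 stood below them at 10.10. The means were 10.69 ± 0.097 in bHR and 10.63 ± 0.31 in bLR rats, a difference of 0.059 (SE 0.12, 95% interval -0.21 to 0.33).

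Hspe1 is the lid of the mitochondrial chaperonin, whose barrel is the protein of Hspd1. It had 9.27, 9.10, 9.27, 9.14 and 9.34 in bHR rats and 9.13, 9.03, 8.89, 9.37 and 9.24 in bLR rats. The lowest pair of values were bLR replicates 2 and 3, both low-dap arrays, and the highest was also a bLR rat. The difference was 0.089 (SE 0.085, 95% interval -0.098 to 0.28), with means of 9.22 ± 0.10 in bHR and 9.14 ± 0.19 in bLR rats.

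Hspb1 is a small heat shock protein that also binds actin and is best known from reactive astrocytes and injured neurons. Its signal was weak, with 17.9% of all genes on the array having a lower mean, and it spanned 4.71, 4.76, 4.59, 4.69 and 4.68 in bHR rats and 4.70, 4.83, 4.66, 4.67 and 4.63 in bLR rats. The means were 4.69 ± 0.062 in bHR and 4.70 ± 0.077 in bLR rats, and the difference was -0.013 (SE 0.048, 95% interval -0.12 to 0.092). A change of a gene this close to the floor of the array can be understated on arrays.

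**Figure D1:**
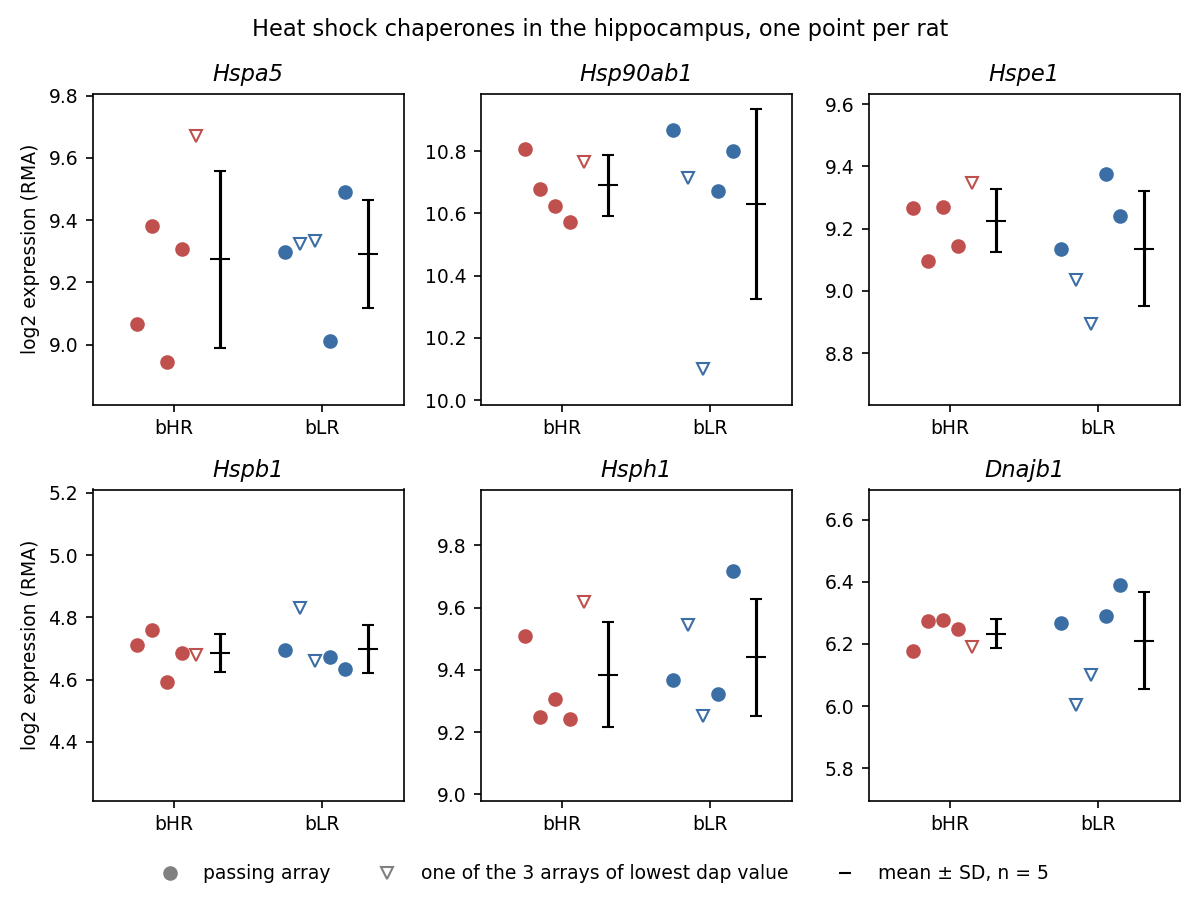
Log2 expression of the 6 measured chaperones on the 10 arrays that passed quality control, with bHR rats at the left and bLR rats at the right of each panel. Points are single rats, triangles are the low-dap arrays, bars are the mean and SD of 5 rats, and each panel spans the same height in log2 units; the lines overlap in every panel, and the lowest Hsp90ab1 value (10.10) is bLR replicate 3.

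The spread between rats of one line was unequal among the chaperones. Within-line SDs were 0.24 for Hspa5, larger than those of 94.6% of all genes, and 0.23 for Hsp90ab1 (93.8%), 0.18 for Hsph1 (87.5%), 0.15 for Hspe1 (79.7%), 0.11 for Dnajb1 (63.2%) and 0.070 for Hspb1 (26.2%). The place of Hsp90ab1 rested on bLR replicate 3, without which its SD was 0.094, larger than that of 51.5% of genes. Over the 7 arrays without low dap the SDs were 0.22 for Hspa5 (97.7% of genes smaller), 0.17 for Hsph1 (93.4%), 0.10 for Hspe1 (67.7%), 0.10 for Hsp90ab1 (67.3%), 0.054 for Dnajb1 (22.1%) and 0.059 for Hspb1 (26.9%). Signals of Hspa5, Hsp90ab1, Hsph1 and Hspe1 were strong, with 96.9% to 99.4% of genes having a lower mean. The median difference between lines over the 6 chaperones was 0.0045, beside 0.00078 over all genes tested, and the median size of the difference was 0.039, beside 0.041.

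Without the 3 low-dap arrays, 4 bHR and 3 bLR rats remained. In them 5 of the 6 chaperones had a lower mean in bHR, beside 4324 of all 9962 genes. Hsph1 averaged 9.33 ± 0.13 in bHR (n = 4) and 9.47 ± 0.22 in bLR rats (n = 3), a difference of -0.14 (95% interval -0.37 to 0.089). Hsp90ab1 averaged 10.67 ± 0.10 in bHR and 10.78 ± 0.10 in bLR rats, a difference of -0.11 (95% interval -0.27 to 0.048). The differences were -0.093 for Hspa5, -0.073 for Dnajb1, -0.056 for Hspe1 and 0.019 for Hspb1. The limma adjusted p ran from 0.981 to 0.997, and the median difference was -0.083 over the chaperones and 0.0099 over all genes, so the signs of Hsp90ab1, Hspe1, Hspb1 and Dnajb1 turned while no gene passed.

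**Figure D2:**
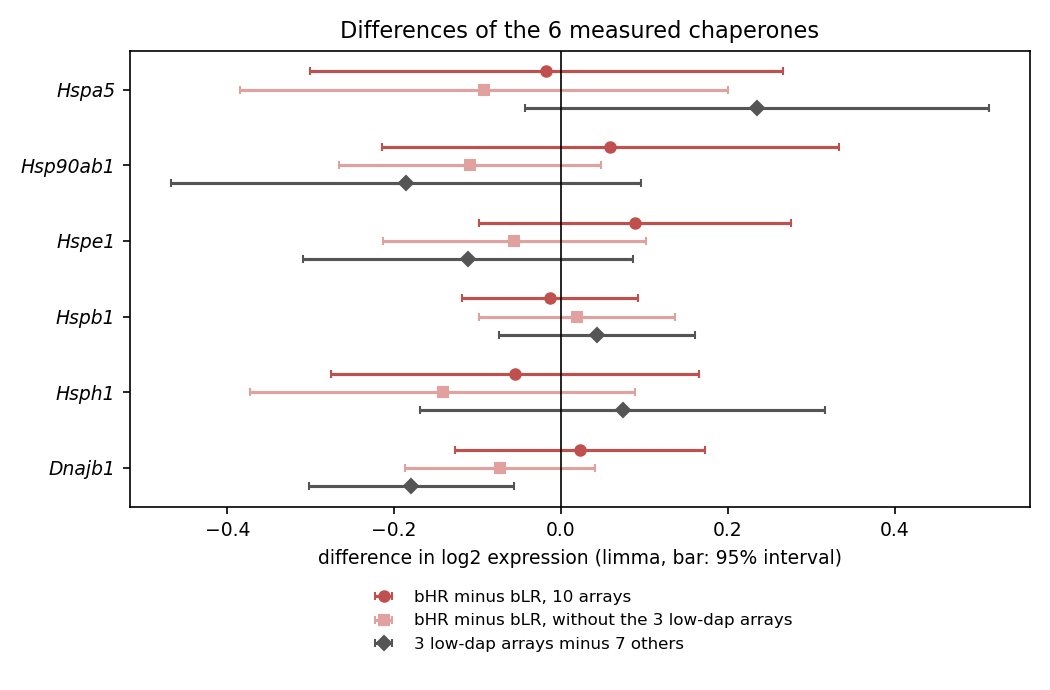
Differences in log2 expression with 95% intervals from limma for the 6 chaperones: bHR minus bLR over 10 arrays, bHR minus bLR without the 3 low-dap arrays, and low-dap minus other arrays with line as a term. All intervals between the lines cross 0, and that of Dnajb1 between low-dap and other arrays (-0.30 to -0.057) does not.

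The second comparison set the 3 low-dap arrays against the other 7, with line as a term, to show how far the chaperones move with loss of 5′ signal. None of the 6 passed adjusted p 0.05, whereas 984 of all genes did (9.88%), 640 of them higher and 344 lower on low-dap arrays. Dnajb1 came closest: it had 6.19, 6.00 and 6.10 on the low-dap arrays, against 6.18 to 6.39 on the other 7. These ranges overlapped by bHR replicate 2 alone, the means were 6.10 ± 0.094 on low-dap arrays (n = 3) and 6.28 ± 0.063 on the others (n = 7), and the difference was -0.18 (SE 0.056, 95% interval -0.30 to -0.057, limma p 0.00799, adjusted p 0.0648). Without bHR replicate 6 the difference was -0.26 with limma adjusted p 0.0293. It was also past the threshold with quantile normalization repeated over the 10 arrays (-0.21, limma adjusted p 0.0468) and with no line term (-0.18, limma adjusted p 0.0431). Of the 10 fits that left out 1 array, only that without bHR replicate 6 passed, and the difference was -0.13 without bLR replicate 2. Over the other alternative runs the difference was -0.21 to -0.12.

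The other 5 chaperones gave values on both sides of 0. Hspa5 had 9.67, 9.32 and 9.33 on low-dap arrays, against 8.94 to 9.49 on the others, a difference of 0.23 (SE 0.13, limma adjusted p 0.269) that was 0.060 without bHR replicate 6. Hsp90ab1 had 10.77, 10.71 and 10.10 on low-dap arrays, against 10.57 to 10.87 on the others, a difference of -0.19 (SE 0.13, limma adjusted p 0.399), which was 0.017 without bLR replicate 3 and -0.37 without bHR replicate 6. Hspe1 differed by -0.11 (SE 0.090), and omitting bHR replicate 6 gave -0.29, omitting bLR replicate 4 gave -0.058 and omitting bLR replicate 3 gave -0.027. Hsph1 differed by 0.074 (SE 0.11) and Hspb1 by 0.043 (SE 0.054), and the limma adjusted p of these 3 genes lay between 0.477 and 0.729. Dnajb1 was 1 of the 6 with an unadjusted limma p under 0.05, beside 2587 genes of all (26%), and the ranges of low-dap and other arrays overlapped for all 6, whereas they did not for 1351 genes (13.6%). Of the cell type markers, 3 of 6 for astrocytes and 2 of 6 for microglia were lower on low-dap arrays past limma adjusted p 0.05. So were 1 of 5 for endothelium and 1 of 3 for smooth muscle, and 1 of 6 for neurons was higher. Over all genes, 3.45% were lower and 6.42% higher at that threshold. No marker of oligodendrocytes, choroid plexus or blood passed it. Markers of one list went both ways, with -0.87 for Gja1 and 0.15 for Aldh1l1 of astrocytes. Among neuronal markers, Rbfox3 had 0.49 and Camk2a -0.25. The part of these markers in the chaperone values was not tested.

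The third comparison used the locomotor score of each rat, centred within its line, and took the slope of expression per 100 beam breaks in a fit that kept line. Scores ran between 1178 and 1328 among passing bHR rats and between 319 and 557 among passing bLR rats. All 6 slopes were above 0, beside 4110 of all 9962 genes, and the 6 share the same arrays, so their signs are not independent. The median slope of the 6 was 0.082, beside -0.0084 over all genes. None of the 6 passed adjusted p 0.05, nor did any gene of the table (0%). Unadjusted limma p was under 0.05 for 3 of the 6 chaperones, beside 410 of all genes (4.12%), 167 of them with a positive slope (1.68%).

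Hspa5 had a slope of 0.18 log2 units per 100 beam breaks (SE 0.069, limma p 0.0255, adjusted p 0.989). The rats of highest score in each line, bHR replicate 6 with 1328 and bLR replicate 6 with 557, also had the highest Hspa5 of their line, 9.67 and 9.49. Leaving out single arrays moved the slope between 0.13 and 0.30, and without the 3 low-dap arrays it was 0.24 (SE 0.059, limma p 0.00324, adjusted p 0.977).

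Hsp90ab1 had a slope of 0.17 (SE 0.067, limma p 0.0288, adjusted p 0.989) that rested on a single rat. Without bLR replicate 3, which had both the lowest score of the table, 319, and the lowest Hsp90ab1, the slope was 0.039, and without all 3 low-dap arrays it was 0.028. Hsph1 had a slope of 0.13 (SE 0.055, limma p 0.0354, adjusted p 0.989), between 0.092 and 0.17 when single arrays were left out, and 0.081 without the low-dap arrays (limma p 0.315). The slopes of Hspe1, Dnajb1 and Hspb1 were 0.032, 0.027 and 0.019, each smaller than its SE.

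**Figure D3:**
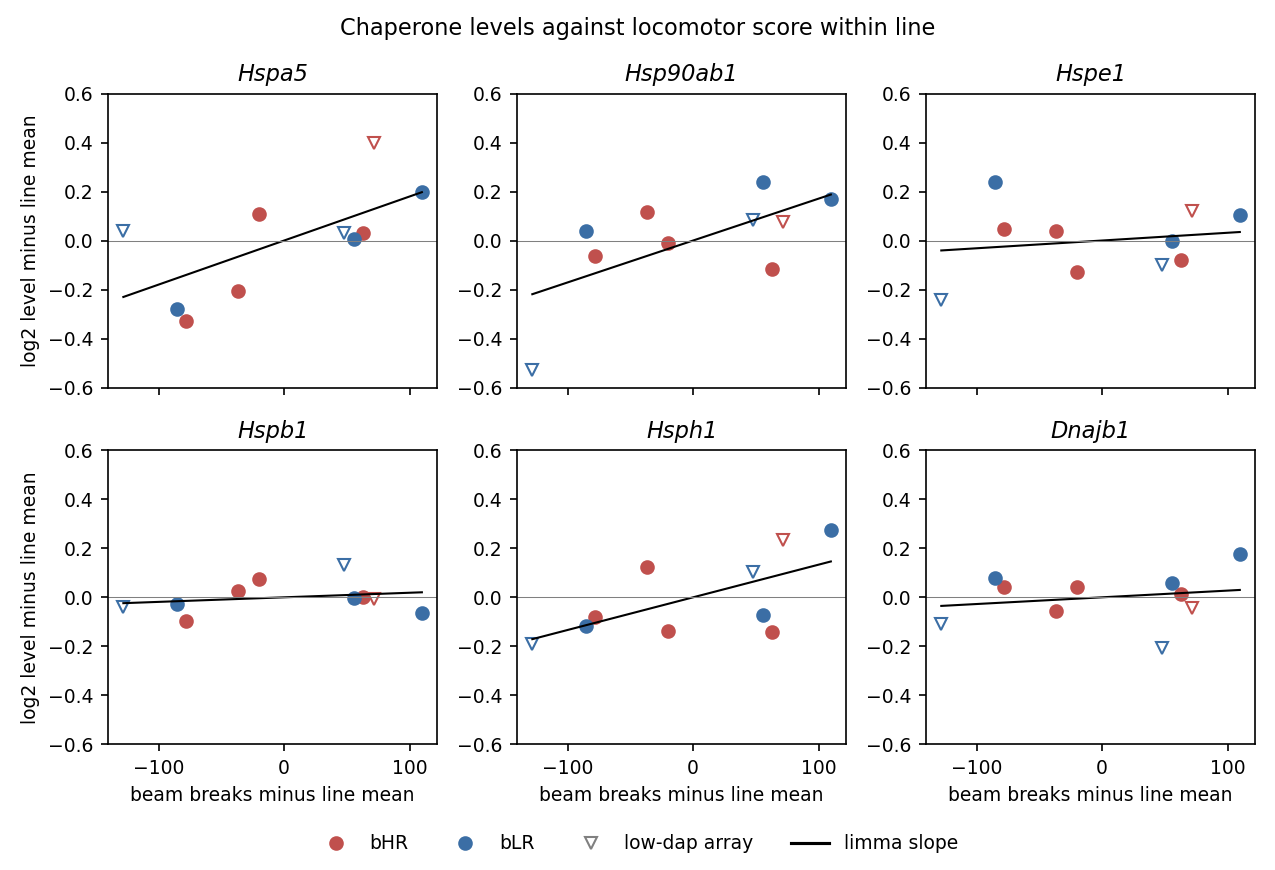
Log2 expression of the chaperones against the locomotor score of each rat in beam breaks, both centred within line, for the 10 passing arrays, with triangles for the low-dap arrays and the fitted slope in each panel. Hspa5, Hsp90ab1 and Hsph1 have the steepest slopes (0.18, 0.17 and 0.13 per 100 beam breaks), and the Hsp90ab1 slope was 0.039 without the lowest triangle.

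The chaperones were then compared with each other over the 10 arrays, with values centred within line, to see whether they vary as one group. The pairs ran in both directions: all 15 had Pearson's r between -0.61 and 0.62, with a median of 0.21 and 11 of 15 above 0. With the 25% of weakest genes left out, Hspb1 dropped out and the remaining 10 pairs had a median of 0.40, with 8 of 10 above 0. Over all 49615741 pairs of genes the median was 0.023 with quartiles of -0.29 and 0.33. No pair passed adjusted p 0.05 over the 15 pairs in a two-sided exact permutation within line, by r or by Spearman's rho. All pairs share the same arrays, and with them any array-wide shift.

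The highest r joined Hsp90ab1 and Hspe1 at 0.62 (exact p 0.153, adjusted 0.637; rho 0.37). It was 0.38 without bLR replicates 3 and 1, the arrays farthest from the median of Hsp90ab1, 0.11 without bLR replicate 3 alone and -0.27 over the 7 arrays without low dap. The pair therefore rests on the array in which Hsp90ab1 stood low, where Hspe1 also had its lowest value, 8.89.

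Hsp90ab1 and Hsph1 had r 0.58 (exact p 0.103, adjusted 0.637) and the highest rank correlation of any pair, rho 0.81 (exact p 0.00722, adjusted 0.108). This pair held its sign in every subset computed: r was 0.84 without bLR replicates 3 and 1, 0.54 over the 7 arrays without low dap (exact p 0.285), and between 0.53 and 0.72 when single arrays were left out. Hsp90ab1 and Hsph1 were not past the threshold in any subset of the passing arrays.

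Hspa5 and Hspe1, which serve the endoplasmic reticulum and the mitochondrion, had r -0.18 over 10 arrays and -0.80 over the 7 (exact p 0.0625, adjusted 0.785). Leaving out bLR replicate 4 alone gave 0.17, and leaving out bHR replicate 6 alone gave -0.56. Hspb1 and Dnajb1 had r -0.61 (exact p 0.0867, adjusted 0.637) and -0.40 over the 7 arrays, and r was -0.16 without bLR replicate 2. Of the 15 pairs, 10 had the same sign with and without the low-dap arrays and 5 changed sign, and the median of the 15 was 0.17 over the 7 arrays.

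**Figure D4:**
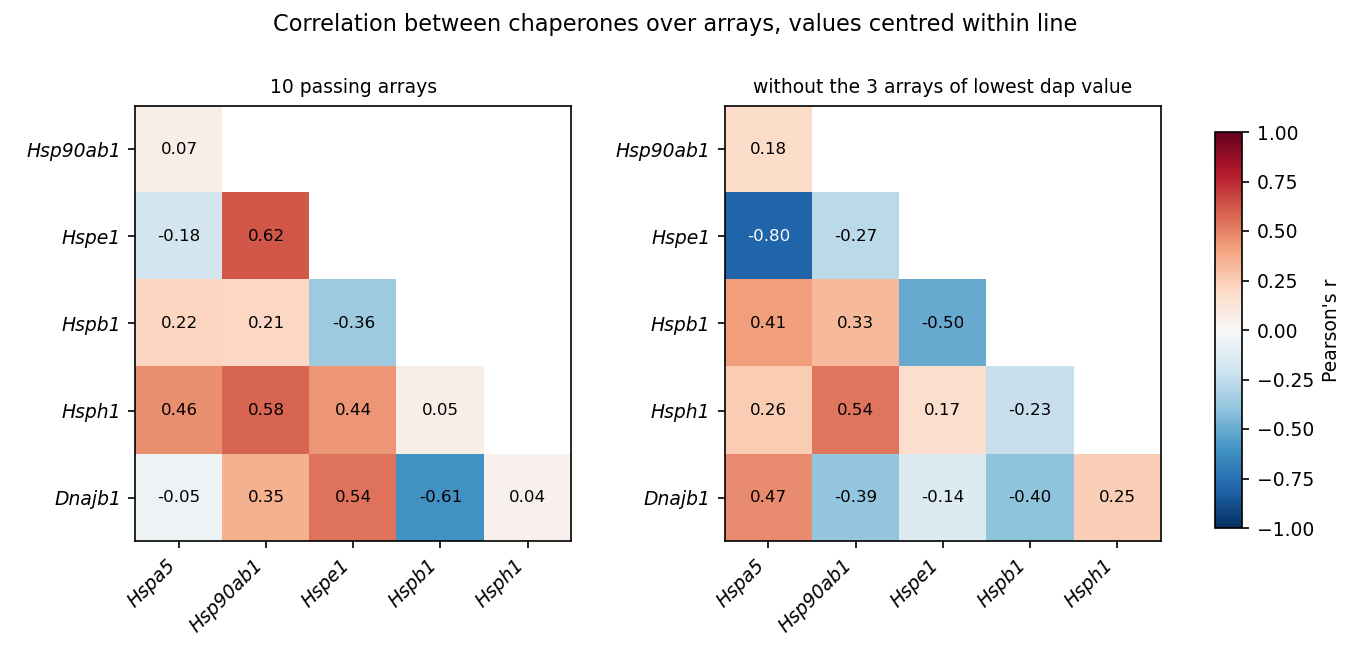
Pearson's r between the 6 chaperones on log2 values centred within line, over the 10 passing arrays at the left and over the 7 arrays without low dap at the right. The pair Hsp90ab1 and Hsph1 has 0.58 and 0.54 in the panels, Hsp90ab1 and Hspe1 has 0.62 and -0.27, and Hspa5 and Hspe1 has -0.18 and -0.80.

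For each chaperone the 3 genes of most similar pattern were listed from 9961 candidates by Pearson's r over the 10 arrays, centred within line, as a description. With so many candidates and only 10 arrays, the highest r is large for unrelated genes too, and no likeness was tested. Hspa5 was most like Taf1, a subunit of general transcription factor TFIID (r 0.97), Pcna, the sliding clamp of DNA replication (0.96), and Pmp22, a myelin membrane protein (0.95). The mean of Taf1 was below that of Hspb1, the gene described above as close to the floor of the array. Hsp90ab1 was most like Ndufb8, a subunit of respiratory complex I (0.97), Wfs1 of the endoplasmic reticulum membrane (0.97) and Kif3a, a kinesin motor (0.96). Over the 7 arrays these values were 0.97, 0.96 and 0.93 for the genes like Hspa5, and 0.79, 0.96 and 0.80 for those like Hsp90ab1. The 7 arrays are part of the 10 by which the genes were chosen, so values over them are not a separate check.

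Hspe1 was most like Eftud2, a GTPase of the spliceosome (0.96), Naca, which meets new chains at the ribosome (0.94), and Ttc19 of respiratory complex III assembly (0.94). Hsph1 was most like Bltp1 (0.95), Ccdc47 (0.95) and Tdp2, a DNA repair enzyme (0.94). Dnajb1 was most like Krr1 of ribosome assembly (0.94), Mcl1, which blocks apoptosis (0.93), and Dlg1, a synaptic scaffold (0.92), and Hspb1 was most like Opa3 (0.93), Txndc5, a disulphide isomerase (0.93), and C1qa of complement (0.93). Over the 7 arrays the lowest r of these 12 genes was that of Mcl1, 0.85. Tdp2 and Mcl1, like Taf1, had means below that of Hspb1, so their likeness rests on signals close to the floor of the array. None of the 6 chaperones was among the 3 genes most like another, which is likely also for 6 unrelated genes with 9961 candidates.

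The rest of the chaperone network was described from 9 lists with 127 genes, of which 101 were measured. Between lines none of the 101 passed adjusted p 0.05: 48 had a higher and 53 a lower mean in bHR rats, the median was -0.0052, and 4 of the 101 had an unadjusted limma p under 0.05, beside 2.94% of all genes. Those 4 were Dnajc15, a mitochondrial J-protein (-0.27, SE 0.089), Bag2, an HSP70 co-chaperone (-0.18, SE 0.067), Ddit3, a transcription factor of the unfolded protein response also called Chop (-0.15, SE 0.057), and Cryab, a small heat shock protein of glia (0.20, SE 0.089), each with limma adjusted p 0.992. Without the low-dap arrays their differences were -0.28, -0.20, -0.13 and 0.19. The first genes by p in the other lists were Dnaja3 of the mitochondrial list (-0.21), Cct7 of the cytosolic chaperonin (0.12), Hsbp1, which binds heat shock factor 1 (0.098), Hsp90b1, the HSP90 of the endoplasmic reticulum (0.033), and Hspa1l of the HSP70 list (0.028). These moved with single arrays: Dnaja3 was -0.32 without bHR replicate 6 and -0.13 without bHR replicate 3, Cct7 was 0.045 without bLR replicate 1, and Hsbp1 was 0.033 without bLR replicate 2. Without the low-dap arrays they were -0.34 for Dnaja3 (limma p 0.0111, adjusted p 0.981), 0.12 for Cct7, -0.058 for Hsbp1, 0.0056 for Hsp90b1 and 0.047 for Hspa1l.

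Hspa1b, the near-identical copy of Hspa1a that is induced by heat, was in the table and is described with its values already known. It had 5.41, 5.60, 5.54, 5.34 and 5.40 in bHR rats and 5.37, 5.71, 5.44, 5.25 and 5.48 in bLR rats. The bLR values held both extremes, and the difference was 0.0083 (SE 0.081, limma adjusted p 0.992). Without the low-dap arrays it was 0.11 (limma adjusted p 0.981). Whether its probes also read Hspa1a is not given in the sources used here.

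Between low-dap and other arrays, 56 of the 101 network genes had a difference above 0 and 45 below, with a median of 0.022. Past limma adjusted p 0.05, 6 were higher and 5 lower on low-dap arrays, beside 6.42% and 3.45% of all genes. The co-chaperones held 5 of these 11 out of 21 measured. Sgta fell by 0.58 (limma adjusted p 0.00492) and Sgtb by 0.47 (0.00724), a pair of related proteins that bind HSP70 and hydrophobic clients. Bag1, a nucleotide exchange factor of HSP70, rose by 0.37 (0.00883). Cdc37l1 and Fkbp5, named after their values were seen, rose by 0.26 (0.0472) and 0.25 (0.0490), and Fkbp5 is a glucocorticoid-induced partner of HSP90.

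Of 26 measured J-proteins, Dnajb2 rose by 0.27 (limma adjusted p 0.00846), Dnajc21 rose by 0.21 (0.0127) and Dnajc10 fell by 0.31 (0.0384). Of 23 measured genes of the endoplasmic reticulum and its stress response, Sel1l, a part of the degradation machinery, fell by 0.62 (limma adjusted p 0.0117), Canx, the lectin chaperone calnexin, fell by 0.57 (0.0269) and Atf6, a sensor of unfolded proteins, rose by 0.25 (0.0477). The other 6 lists had no gene past the threshold. Dnajb2, Dnajc21, Sgta, Sgtb and Bag1 kept their call in all 10 fits that left out 1 array, and Sel1l in 9, losing it without bLR replicate 3. Canx kept it in 6, losing it without bLR replicate 1, 2, 3 or 4, Dnajc10 kept it in 4 and Atf6 in 2, and Cdc37l1 and Fkbp5 each in 1. For the locomotor score none of the 101 passed the threshold and 2 of the 101 had an unadjusted limma p under 0.05, beside 4.12% of all genes. Those 2 were Unc45a, a co-chaperone with a slope of -0.16 (limma p 0.0011, adjusted p 0.947), and Dnaja3 with 0.19 (limma p 0.0247, adjusted p 0.989).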

How the data were processed

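Log2 values were deposited by the authors after RMA (background correction, quantile normalization, probe summary) in affy 1.54.0 (submitters' processing notes). Probes were grouped by Entrez gene through a custom chip definition (19.0.0), per the labels' design text. The table has 10019 rows; 57 control rows were left out, and of the 9962 genes 9831 were named through RefSeq (GRCr8) and 17 through the platform annotation. Arrays have no read depth; 5 arrays per line limit the precision. Line comes from the labels and replicates are numbered in accession order. Differences used limma 3.58.1 under R 4.3.3 (lmFit, eBayes, Benjamini-Hochberg over all genes); pairs used exact permutation within line (14400 permutations, smallest possible p 6.94e-05; 144 for 7 arrays). The steps were tested on simulated data. Members, lists and tests were chosen with earlier results of these data known. Named genes are the members, up to 3 per list by smallest p in each comparison, the 3 most alike, and pairs singled out after their values were seen. Promoters came from RefSeq.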

Additional observations from a re-analysis of the deposited data

Results flagged for a closer look

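Hsp90ab1 in bLR replicate 3 was 10.10, below the other bLR rats at 10.67 to 10.87, and the gap to the nearest of them was 0.741 of the whole bLR range, above the critical value of 0.710 for 5 samples. Each of 7 genes (the 6 chaperones and Hspa1b) was examined in both lines, 14 groups in all, and 1 was marked; chance marks about 1 in 20 such groups. That array also had the lowest dap and beta-actin 5′ minus 3′ values of the passing arrays, -1.82 and -3.65, and the part of these in the low value was not tested.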

How the results depend on the processing

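No chaperone passed the threshold between lines or for locomotor score under any alternative run, and their uncalled values changed sign in several; the causes were not tested. For bHR minus bLR, all 12 arrays gave -0.18 for Hsp90ab1, -0.016 for Hspe1, 0.046 for Hspb1, -0.028 for Dnajb1, -0.054 for Hspa1b, -0.063 for Hsp90b1 and -0.058 for Cct7. Without the 3 low-dap arrays the values were -0.11 for Hsp90ab1, -0.056 for Hspe1, 0.019 for Hspb1, -0.073 for Dnajb1 and -0.058 for Hsbp1. The beta-actin value as a covariate gave 0.031 for Hspa5, -0.036 for Hsp90ab1 and -0.029 for Dnajb1, and repeated quantile normalization gave 0.0016 for Hspa5. Leaving out single arrays gave -0.12 to 0.065 for Hspa5, -0.073 to 0.12 for Hsp90ab1, 0.028 to 0.15 for Hspe1, -0.032 to 0.020 for Hspb1, -0.11 to 0.014 for Hsph1, -0.029 to 0.067 for Dnajb1, -0.041 to 0.074 for Hspa1b and -0.0033 to 0.064 for Hsp90b1.

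For low-dap minus other arrays, leaving out single arrays gave 366 to 1164 genes past the threshold (366 without bLR replicate 3, 478 without bLR replicate 1, 541 without bLR replicate 4) and 0 to 1 chaperones, which was 1 also with quantile normalization repeated and with no line term. Those fits gave 0.060 to 0.32 for Hspa5, -0.37 to 0.017 for Hsp90ab1, -0.29 to -0.027 for Hspe1, -0.071 to 0.19 for Hsph1, -0.0078 to 0.078 for Hspb1, -0.26 to -0.13 for Dnajb1 and -0.00072 to 0.21 for Hspa1b. The slope on beta-actin gave -0.027 for Hsph1. Some numbers in the sample titles are shared by a bHR and a bLR rat, and number 7 is shared by bLR replicate 1 and the failed bHR replicate 1. Among passing arrays, 3 numbers are shared by a bHR and a bLR rat, whose deviations correlated at -0.33, 0.26 and 0.41. Among these rats, bLR replicates 2 and 3 are low-dap arrays, and the correlations do not settle whether the rats are pairs. The meaning of the numbers is not stated, so they were not taken as pairs. With the title number as a replicate block, 0 genes were past the threshold, Hspb1 was -0.073 and Atf6 was -0.12. That fit leaves almost no residual degrees of freedom, so its count of 0 was close to fixed by the design. For locomotor score, Hspb1 was -0.0059 with 12 arrays; Hspe1 was -0.0089 with the replicate block, -0.091 without low-dap arrays and -0.0049 with beta-actin, and -0.054 to 0.089 over left-out arrays; Dnajb1 was -0.0050 with beta-actin and -0.020 to 0.051 over left-out arrays.

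The median r of the pairs was 0.78 with the 2 failed arrays included and 0.018 (without bLR replicate 3) to 0.35 over left-out arrays, with 0.072 without bHR replicate 4. With the failed arrays, quartiles over all pairs of genes were -0.66 and 0.68, and 29.1% of all pairs had r above 0.6. Of the 15 chaperone pairs, 10 had r above 0.6. All 4 named pairs passed the threshold with the failed arrays (adjusted exact permutation p 0.00622 to 0.0297). There r was 0.93 for Hspa5 and Hspe1, which was 0.081 on beta-actin residuals and -0.56 to 0.17 over left-out arrays; Hsp90ab1 and Hspe1 had -0.27 without low-dap arrays. Leaving out the 25% of weakest genes gave a median r of 0.40, over the 10 pairs without Hspb1, and changed no call in the limma comparisons of the genes it kept. The within-line SDs without bLR replicate 3 and without the low-dap arrays were added after seeing the data.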

Other observations

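The failed arrays held chaperone values far from the passing ones. On bHR replicate 1 and bLR replicate 5, Hspa5 was 6.86 and 8.06, against 8.94 to 9.67 on passing arrays, and Hsph1 was 7.02 and 8.26, against 9.24 to 9.72. Hsp90ab1 was 8.40 and 9.78, against 10.10 to 10.87, and Hspe1 was 7.27 and 7.81, against 8.89 to 9.37. Dnajb1 was 5.83 and 6.10, of which bLR replicate 5 lay within the passing range of 6.00 to 6.39. Hspb1 lay above the passing range of 4.59 to 4.83, at 5.33 on bHR replicate 1 and 4.98 on bLR replicate 5. Both arrays entered no comparison, and including them gave the pairs of chaperones a median r of 0.78. Including them also moved the quartiles over all pairs of genes from -0.29 and 0.33 to -0.66 and 0.68.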
